A study of Brassica napus with 12 samples.

Results

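The leaf response to silicon was read from 6 of the 12 libraries of the series, chosen by their titles: 3 mature leaf libraries from plants given silicon (Si) and 3 from plants without it (no Si). All plants were wild-type Brassica napus (oilseed rape) of the variety Citizzen, grown in aerated nutrient solution in a greenhouse. From the emergence of leaf 4, the Si plants received 1.7 mM Si as sodium metasilicate for 1 week, and the no-Si plants received 3.4 mM NaCl for that week to match the sodium. The chloride of that NaCl had no counterpart in the metasilicate, and the pH of both solutions was set with HCl or NaOH, in amounts the labels do not give. A response to chloride and a response to Si cannot be told apart here. The other 6 libraries, from roots under the same treatments, are used here only to set a leaf gene's values beside its root values. The labels give 12 February as planting date for the no-Si leaves and for Si replicate 3, and 21 March for Si replicates 1 and 2, with a harvest on 28 March for all. The later date lies 1 week before harvest, which equals the length of the Si supply and is shorter than the growth the protocol describes, so it is unlikely to be a sowing date, and what it marks is not stated. It is called the labelled date below. They do not say how many plants made up a replicate, so p-values measure the spread between these libraries. The leaves carry 2 labels, mature leaf in the title and aerial in the tissue field.

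Plants take up silicon as silicic acid and move it in the water stream to the shoot, where it is laid down as amorphous silica in and around leaf cell walls. Cereals such as rice do this through dedicated channel and efflux proteins in the root. Brassicaceae lay down little silica, and supply to them is mostly studied for its effect under nutrient shortage or other stress. Brassica napus is an allotetraploid, so most genes exist as an A copy and a C copy, and the deposited identifiers carry the chromosome (A01 to A10, C01 to C09, or an unplaced group) but no gene name. None of the genes described here matched a RefSeq symbol (assembly Da-Ae), so no function can be attached to them and the leaf label could not be checked against named leaf markers.

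Sense counts assigned to genes ran from 17334063 to 21307409 in the Si leaf libraries and from 14429867 to 21792206 in the no-Si leaf libraries. Of 52962 identifiers, 48212 had reads in leaves and 41051 had enough to be tested. Of the 10 measures of library composition compared, including mapping shares, genes detected and the share of the C subgenome, the smallest two-sided exact permutation p was 0.2 (Benjamini-Hochberg adjusted p = 1), where 3 against 3 libraries cannot go below 0.1. The C subgenome held 50.6 ± 0.367% of counts on A and C identifiers in Si leaves and 50.6 ± 0.621% in no-Si leaves (SD, n = 3). One no-Si library, replicate 2, stood apart with 15.6% unmapped reads, against 5.36% to 6.23% in the other leaf libraries.

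The no-Si leaves differed more among themselves than the Si leaves did. The root-mean-square difference in log2 CPM (counts scaled to library size) between libraries was 0.39 to 0.54 for the 3 pairs of Si leaves and 0.56 to 0.76 for the 3 pairs of no-Si leaves. The 9 pairs of a Si and a no-Si library lay between 0.41 and 0.63, which overlaps the range of both kinds of same-treatment pair. On principal component 1, which held 38.6% of the variance between libraries, no-Si replicate 1 stood at 81.9 and no-Si replicate 2 at −71.5, with the other 4 libraries between −19.5 and 11.8. It therefore separated 2 replicates of the same treatment. Counts of genes at an unadjusted p, of genes with separate groups and of genes past 2-fold are given below also without these libraries.

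The comparison asks how leaf transcript levels differ once plants have had Si for a week. Of the 41051 genes tested, 3 passed (0.00731%; quasi-likelihood test of edgeR, adjusted after Benjamini-Hochberg, threshold 0.05), and all 3 were lower with Si. No gene passed as higher with Si, while 568 genes were higher at an unadjusted p under 0.05 by edgeR and DESeq2 called 8 higher. The strongest call, BnaA07g32570D on A07, was close to an on-off difference. It had 0, 2 and 0 reads in the Si leaves, against 371, 274 and 253 reads in the no-Si leaves. In CPM it averaged 0.0297 ± 0.0515 in Si leaves and 16.8 ± 3.01 in no-Si leaves (SD, n = 3). The ratio of summed reads, no Si over Si and scaled for library size, was 497 (95% interval 137 to 4107, counting error only). The fitted log2 fold change was −8.72 (SE 0.48, edgeR adjusted p = 0.00228). Every Si leaf was at or near 0, and the lowest no-Si leaf was at 14.0 CPM. Si replicate 3, which carries the same labelled date as the no-Si leaves, had no read. Without Si replicate 2, the only Si leaf with reads of this gene, the fitted log2 fold change was −11.27, and across 17 alternatives it ran from −11.32 to −8.19. With so few reads in Si leaves that fitted size depends on the prior count. Its SE is that fitted size divided by the square root of the F statistic, so it depends on the prior count too. DESeq2 gave −8.98 with an SE of 1.05.

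The second call, BnaA09g10710D on A09, was the most abundant of the 3. It stood at 41.7, 35.7 and 35.6 CPM in Si replicates 1 to 3, against 104, 115 and 123 CPM in no-Si replicates 1 to 3. Every Si leaf was below every no-Si leaf, and the groups lay far apart compared with their own ranges. The mean level fell by 67.0% with Si (37.7 ± 3.51 CPM in Si leaves and 114 ± 9.66 CPM in no-Si leaves, SD, n = 3; log2 fold change −1.60, SE 0.14; edgeR adjusted p = 0.0451).

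The third call was BnaA03g47140D on A03. Its levels were 5.20, 4.95 and 4.74 CPM in the Si leaves and 14.4, 18.1 and 19.2 CPM in the no-Si leaves. The 3 Si values were nearly equal, and the lowest no-Si value was higher than each of them. The mean level fell by 71.2% (4.96 ± 0.228 CPM in Si leaves and 17.2 ± 2.49 CPM in no-Si leaves, SD, n = 3; log2 fold change −1.79, SE 0.16; edgeR adjusted p = 0.0451). For BnaA09g10710D and BnaA03g47140D the call depended on the setting: each was called under 7 of 17 alternatives, while the log2 fold change stayed between −1.91 and −1.71 for BnaA03g47140D and between −1.68 and −1.54 for BnaA09g10710D. Leaving out any Si replicate, or no-Si replicate 3, ended both of these calls, and leaving out no-Si replicate 2 ended that of BnaA03g47140D. BnaA07g32570D stayed called without each library in turn. With the labelled date as a term, which leaves Si to be judged from Si replicate 3 alone, none of the 3 passed. In that fit the difference of BnaA07g32570D was −11.32 on the log2 scale. Si replicate 3 had no read of this gene, so that size again depends on the prior count. Since the meaning of that date is not stated, whether this term removes a difference in growth cannot be told.

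The calls were single genes rather than stretches of a chromosome. Within 10 identifiers on each side, 13 neighbours of BnaA07g32570D were tested, with log2 fold changes from −0.13 to 0.21 and a median of −0.03. The 13 tested neighbours of BnaA09g10710D had a median of 0.14, with the lowest at −0.07. The 18 tested neighbours of BnaA03g47140D had a median of 0.06, with a range from −0.42 to 0.93. None of these neighbours was called, and 2 of those around BnaA03g47140D had an unadjusted p under 0.05. Reads on the opposite strand were few for the called genes, with 2 reads in Si leaves and 15 in no-Si leaves summed over 3 libraries for BnaA09g10710D.

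Next in order of p came genes that did not pass. BnaC07g39340D on C07 had 37.6, 29.9 and 29.2 CPM in the Si leaves, against 84.3, 111 and 119 CPM in the no-Si leaves. Its groups did not overlap, and its log2 fold change of −1.70 (SE 0.18) was as large as that of the called genes other than BnaA07g32570D, but its edgeR adjusted p was 0.110. In each group its 3 replicates stood in the same order as those of BnaA09g10710D. It passed under 3 of 17 alternatives, namely DESeq2, a fit over all 12 libraries, and the fit without no-Si replicate 1. BnaC06g32310D on C06 had 3.94, 4.60 and 4.07 CPM in the Si leaves, against 12.9, 9.61 and 11.2 CPM in the no-Si leaves (log2 fold change −1.42, SE 0.18; edgeR adjusted p = 0.281). Here too every Si leaf was below every no-Si leaf, and it passed by DESeq2 (adjusted p = 5.67e-06) and under no other of the 17 alternatives.

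At the other end, the 2 genes of smallest p with more reads in Si leaves did not pass either. BnaA06g05150D on A06 had 36.5, 48.9 and 46.4 CPM in the Si leaves, against 20.2, 21.4 and 21.9 CPM in the no-Si leaves. The no-Si values were close to each other and all below the Si values, with a log2 fold change of 1.05 (SE 0.15; edgeR adjusted p = 0.469). BnaC03g67640D on C03 had 25.8, 40.1 and 51.7 CPM in the Si leaves and 13.9, 13.8 and 15.5 CPM in the no-Si leaves (log2 fold change 1.44, SE 0.24; edgeR adjusted p = 0.958). In this gene the spread lay in the Si group. Both genes passed by DESeq2 and under no other of the 17 alternatives.

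**Figure D1:**
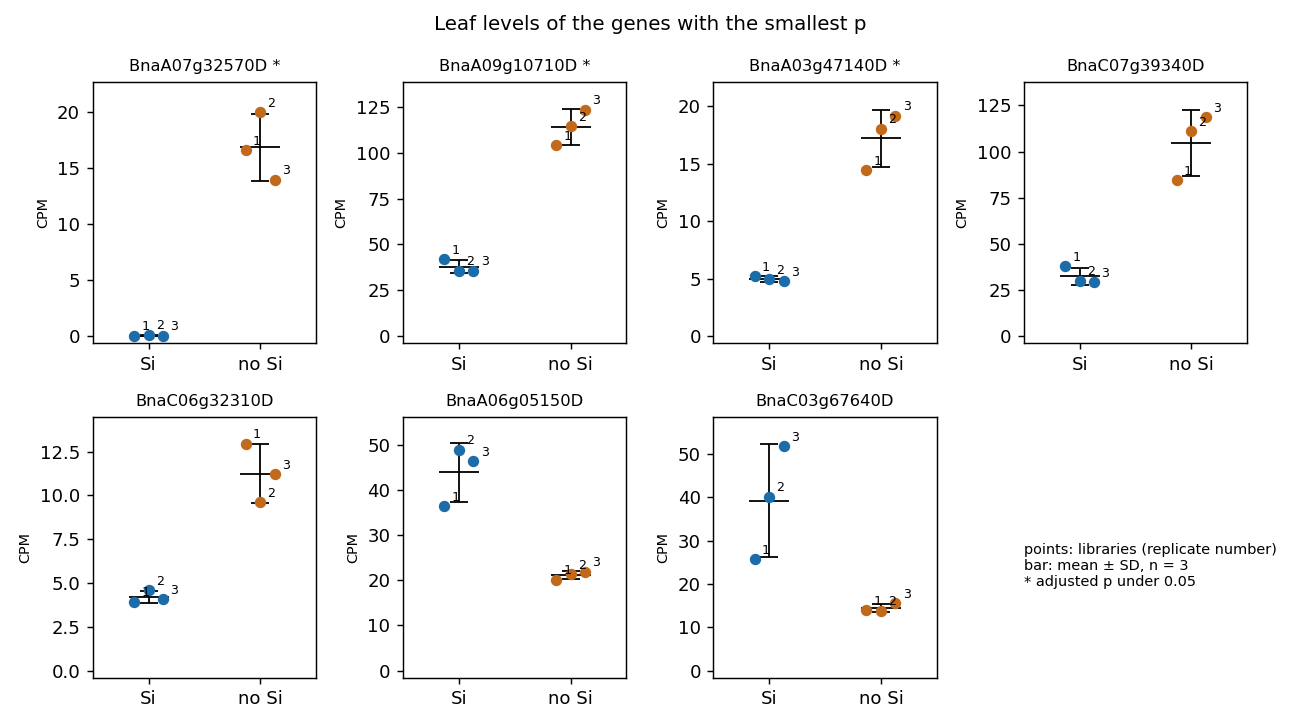
CPM in each leaf library (points, numbered by replicate; Si in blue, no Si in orange) for the 3 called genes (marked *) and the 4 next genes by the rule used here, with the mean and SD (n = 3). The Si and no-Si points do not overlap in any of the 7 panels, as choosing genes by small p makes likely. The Si points of BnaA07g32570D lie at or near 0.

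Group separation of this kind was common in the table as a whole. The 3 Si leaves lay all above or all below the 3 no-Si leaves in 3824 genes (9.32%), 1862 of them higher (4.54%) and 1962 lower (4.78%) with Si. By order alone, a fraction of 0.1 of genes would separate, the smallest exact permutation p for 3 against 3. The called and next genes above were chosen by small p in these same libraries. Their separation was nearly fixed by that choice and is no added evidence. The count was 9149 of 41338 genes tested without no-Si replicate 1. Leaving out replicate 2 of that group gave 9608 of 41728, and leaving out replicate 3 gave 6698 of 41685. Groups of 3 and 2 libraries separate more easily, so these counts cannot be set against the fraction of 0.1. How much of the rise comes from group size was not tested. An unadjusted p under 0.05 by edgeR was reached by 1679 genes (4.09%), 568 higher (1.38%) and 1111 lower (2.71%). That share lies below the 0.05 that the threshold passes when no gene differs, so the count alone does not mark these genes as responders. It cannot show that none of them responds. Without no-Si replicate 1 the count was 2330 of 41338 genes tested (896 higher, 1434 lower). Without no-Si replicate 2 it was 2917 of 41728 (923 higher, 1994 lower). Leaving out Si replicate 3 gave 1107 of 41463 (368 higher, 739 lower). The share thus lay above 0.05 without no-Si replicate 1 or 2, and below it without Si replicate 3. The median log2 fold change of all genes was −0.00382, and 20250 genes lay above and 20801 below 0.

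**Figure D2:**
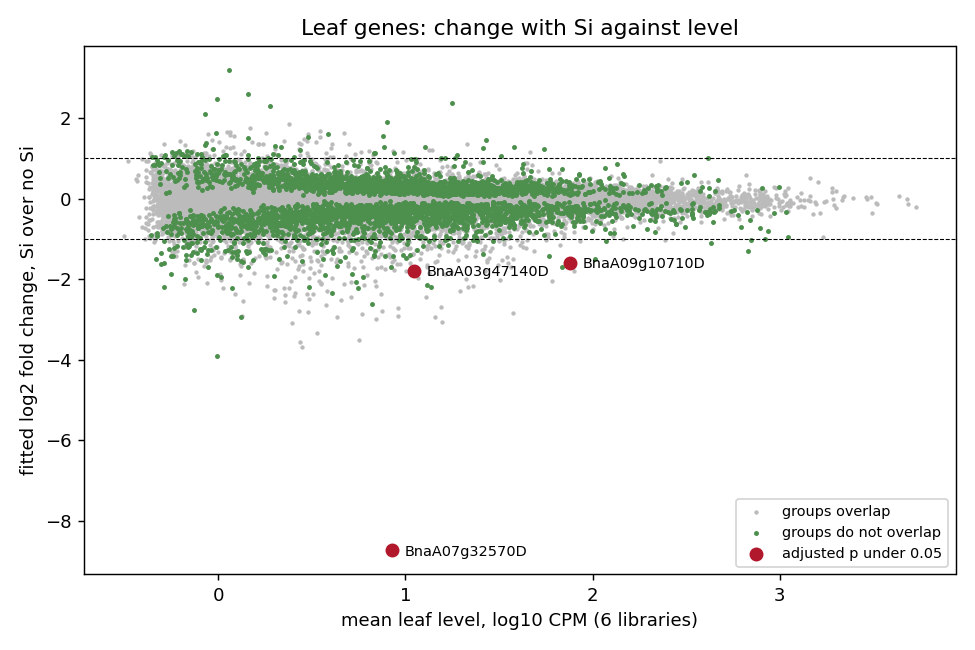
Fitted log2 fold change (Si over no Si) of each of the 41051 leaf genes tested against its mean level (log10 CPM over 6 libraries); grey points have overlapping groups, green points do not, and red points are the 3 calls. Dashed lines mark a 2-fold difference, and most genes lie between them at every level.

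For most leaf genes the data set limits on the size of a change. The 95% interval of the fold change (limma-voom, not adjusted for the number of genes) lay wholly within 2-fold in either direction for 32303 of 41051 genes (78.7%). The share was 15.2% of the 2694 genes under 1 CPM, 74.6% of the 20197 genes from 1 to 10 CPM and 92.7% of the 16722 genes from 10 to 100 CPM. Of the 1379 genes from 100 to 1000 CPM it was 92.4%, and of the 59 genes over 1000 CPM it was 86.4%. Below 1 CPM the interval thus reached past 2-fold in most genes. Levels here are CPM, not per length, so the classes order genes by reads and not by transcripts.

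The spread between replicates followed level, and it was larger in the no-Si group at every level. The median SD of log2 CPM was 0.20 in Si leaves and 0.27 in no-Si leaves over all genes, and the no-Si SD was the larger of the pair in 64.5% of genes. Under 1 CPM the medians were 0.40 in Si leaves and 0.47 in no-Si leaves. From 10 to 100 CPM, where the spread was smallest, they were 0.16 in Si leaves and 0.22 in no-Si leaves. Above 1000 CPM they were 0.25 in Si leaves and 0.33 in no-Si leaves, so the most abundant transcripts varied more than those of middle level.

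**Figure D3:**
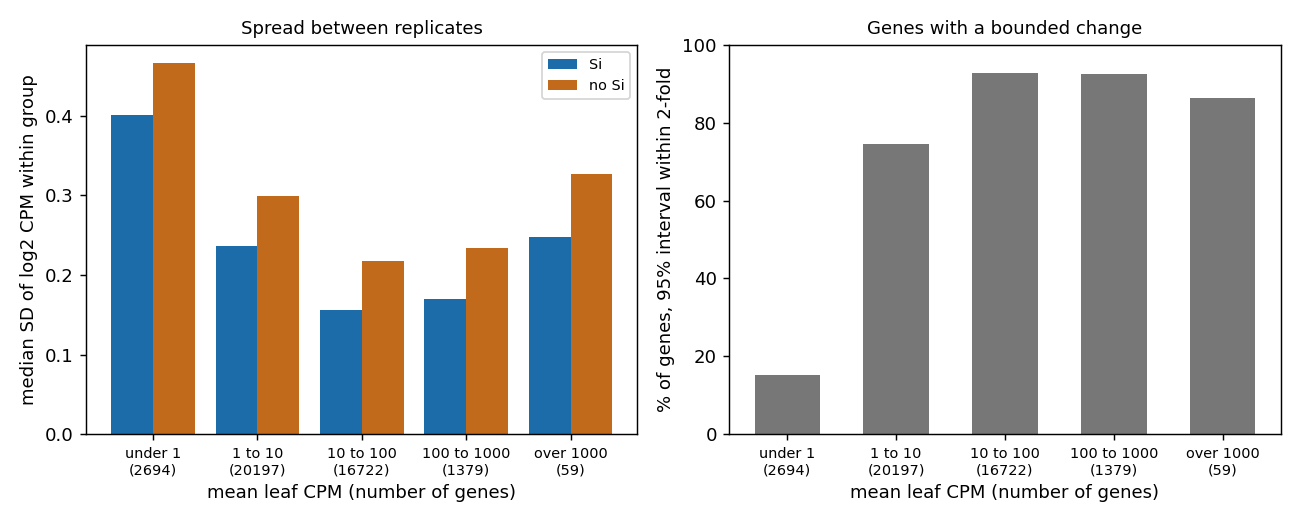
Left, median SD of log2 CPM among 3 replicates in Si and no-Si leaves by class of mean leaf CPM (number of genes in brackets); right, percentage of genes whose 95% interval for the fold change lies within 2-fold. The no-Si bars are the higher in every class, and the share on the right runs from 15.2% to 92.7%.

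The abundant leaf transcripts show what this spread means for single genes. BnaC04g46560D, the gene with the highest mean CPM, had 6340, 3957 and 4610 CPM in the Si leaves and 3948, 7512 and 5674 CPM in the no-Si leaves. The groups overlapped, and the log2 fold change was −0.20 (SE 0.30; edgeR adjusted p = 1.00). Its 95% interval, from −0.83 to 0.47 on the log2 scale, allows a fall or a rise of less than 2-fold. BnaAnng36210D, on an unplaced A sequence, had 5601, 4581 and 3676 CPM in Si leaves and 3470, 5754 and 6037 CPM in no-Si leaves. Both had far lower values in roots, at 4.59 ± 3.72 and 4.28 ± 4.21 CPM in Si roots and at 9.71 ± 8.98 and 8.41 ± 7.90 CPM in no-Si roots (SD, n = 3).

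The other 3 of the 5 most abundant genes behaved alike. BnaC01g05230D had 5932, 4691 and 3736 CPM in Si leaves, against 3630, 6482 and 4318 CPM in no-Si leaves. BnaA01g03860D had 5173, 4313 and 3905 CPM in Si leaves, against 2748, 5671 and 4331 CPM in no-Si leaves. BnaA02g09460D had 4324, 2404 and 2770 CPM in Si leaves, against 2001, 4993 and 3384 CPM in no-Si leaves. In each of these 3 genes the lowest and the highest library were both without Si, replicate 1 the lowest and replicate 2 the highest. Their log2 fold changes were −0.01, 0.07 and −0.13 in the order given, none called. Of the 59 genes over 1000 CPM edgeR called none (2 at an unadjusted p under 0.05) and DESeq2 called 1, lower with Si. None differed 2-fold, and 2 had groups that did not overlap.

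Sizes of change were examined apart from tests. On the difference of mean log2 CPM, 580 genes differed 2-fold or more (1.41%), 207 higher (0.504%) and 373 lower (0.909%) with Si. By the ratio of group means that edgeR fits, which gives more weight to a single high library, the count was 661, with 138 higher and 523 lower. Such genes were more frequent at low level. They numbered 99 under 1 CPM (3.67% of that class) and 341 from 1 to 10 CPM (1.69%). From 10 to 100 CPM there were 129 (0.771%), and from 100 to 1000 CPM 11 (0.798%). Of the 580, 172 (29.7%) had groups that did not overlap, against 9.32% of all genes tested. Choosing genes by a large difference of means makes separation likelier, so the larger share is no added evidence. Of the 580, 97 (16.7%) stayed past 2-fold when each leaf library was left out in turn, 21 higher and 76 lower.

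In most of these genes a single no-Si library lay farthest out. Among the 373 lower genes, no-Si replicate 1 was the library farthest from the gene's mean in 195 (52.3%). It was the highest value in all 195, a side that choosing lower genes nearly fixes. That library was farthest in 31.3% of all genes tested. Among the 207 higher genes, no-Si replicate 2 was farthest in 155 (74.9%), against 20% of all genes. It was always the low value, which choosing higher genes likewise nearly fixes. Of the 373 lower genes 135 stayed past 2-fold without no-Si replicate 1, and of the 207 higher genes 52 stayed without no-Si replicate 2. Fitted anew without no-Si replicate 1, the table gave 656 genes past 2-fold, 372 higher and 284 lower, and leaving out no-Si replicate 2 gave 1043, 167 higher and 876 lower. The excess of lower over higher genes thus turned round without no-Si replicate 1.

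**Figure D4:**
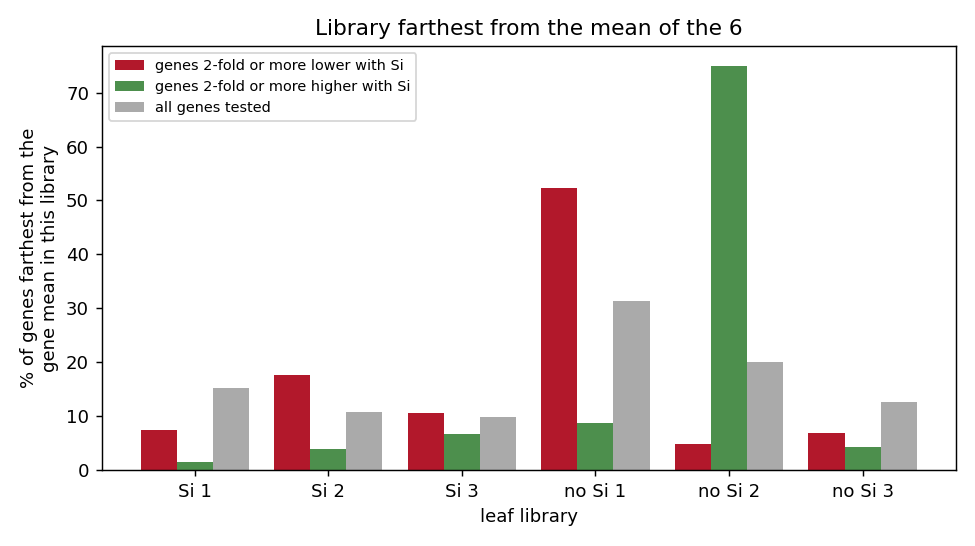
Percentage of genes for which each leaf library is the one farthest from the gene's mean log2 CPM over the 6 libraries, for genes 2-fold or more lower with Si (red), 2-fold or more higher with Si (green) and all genes tested (grey). No-Si replicate 1 holds 52.3% of the lower genes and no-Si replicate 2 holds 74.9% of the higher genes.

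The higher genes were also over-represented on 1 chromosome, though most lay elsewhere. Of the 207, 55 were on C02, which held 3.9% of all genes tested. Another 26 were on unplaced C sequence, which held 6.27%. No-Si replicate 2 was the farthest library in all 55 of the C02 genes and in 23 of the 26. The 373 lower genes were spread, with at most 32 on a single chromosome (A03, 6.86% of genes tested) and 31 on C03 (7.77%).

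By chromosome, leaf genes showed small shifts that differed from library to library. Of the 19 chromosomes, 9 had a median log2 fold change below 0 and 10 above, from −0.10 on C03 to 0.05 on C07. At an unadjusted p under 0.05 by edgeR, 17 of the 19 held more lower than higher genes, as did the table as a whole (1.38% higher, 2.71% lower). The exceptions were A01, with 45 higher and 39 lower, and C07, with 51 higher and 45 lower. Without 1 library, from 15 (no-Si replicate 3 left out) to 19 of the chromosomes held more lower genes, and A01 held 41 higher and 49 lower without no-Si replicate 1. The 3 calls fell on A03, A07 and A09.

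C03 stood out in the number of low p-values. Of 3190 C03 genes 17 (0.533%) were higher and 171 (5.36%) lower with Si at an unadjusted p under 0.05 by edgeR, which called none, while DESeq2 called 2, 1 in each direction. Leaving out no-Si replicates 1, 2 and 3 in turn put the share of lower C03 genes at 7.5%, 9.97% and 2.93%, and leaving out Si replicate 3 gave 3.47%. Without no-Si replicate 3, A04 and not C03 had the highest share. The median C03 gene deviated from its mean over the 6 libraries by −0.06, −0.03 and −0.04 on the log2 scale in Si replicates 1 to 3, and by 0.07, −0.03 and 0.12 in no-Si replicates 1 to 3. No-Si replicate 2 thus lay among the Si leaves. The median log2 fold change of C03 was −0.13 without no-Si replicate 2, and leaving out replicate 3 of that group gave −0.08.

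On other chromosomes the shifts lay mostly in 1 or 2 libraries. A01 and C07, the exceptions above, had medians of −0.07 and −0.10 in no-Si replicate 1, and from −0.00087 to 0.03 (A01) and from 0.0052 to 0.05 (C07) in the other leaves. C01 stood at 0.08 in no-Si replicate 1. C09 varied in both groups, at −0.01, −0.01 and 0.09 in the Si leaves and at −0.01, −0.12 and 0.07 in the no-Si leaves. A04 was lower in Si replicate 3, at −0.05. For 13 of the 19 chromosomes the median log2 fold change was smaller than 1 SD of these medians between replicates.

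**Figure D5:**
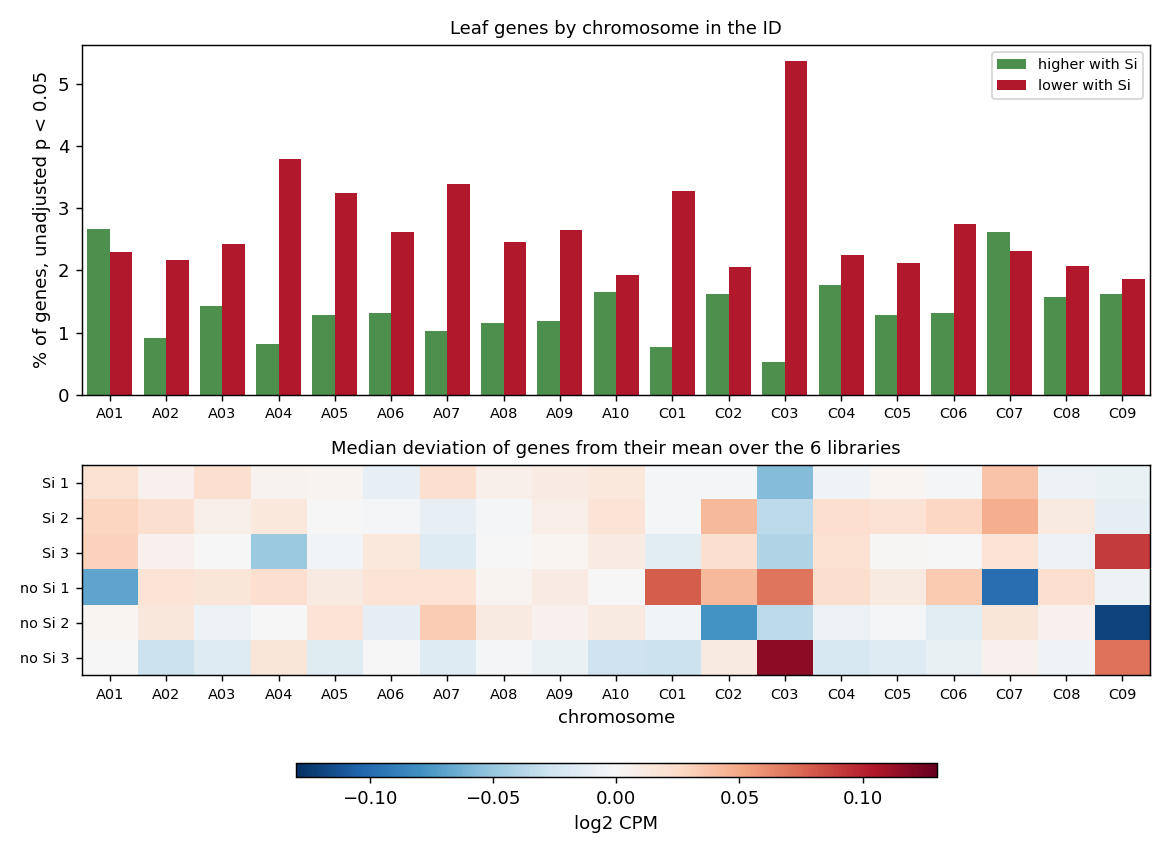
Top, percentage of the leaf genes tested on each chromosome with an unadjusted p under 0.05 by edgeR, higher (green) or lower (red) with Si; bottom, median deviation of a chromosome's genes from their mean over the 6 leaf libraries (log2 CPM), 1 row per library. C03 has 5.36% lower genes and 0.533% higher ones, and the strongest colours of the lower panel lie mostly in the no-Si rows.

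DESeq2 called 43 leaf genes at an adjusted p under 0.05 (0.091% of 47230), 8 higher and 35 lower, and the 3 edgeR calls were among them. Of these, 42 were also tested by edgeR, where the largest unadjusted p was 0.0115 and the largest adjusted p 1.00. All 42 had groups that did not overlap, as a choice by small p makes likely, and 33 differed 2-fold or more. Their mean levels ran from 1.14 to 1104 CPM with a median of 15.5 CPM, and the smallest change was 0.62 on the log2 scale. They were scattered over 18 chromosomes or unplaced groups, with 20 on A and 22 on C identifiers, and no group held more than 5.

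The leaf genes were set beside their root values, where all Si roots carry the labelled date 21 March and all no-Si roots 12 February, so that whatever the date marks cannot be told apart from Si. BnaA07g32570D had 0, 4 and 0 reads in the Si roots and 334, 345 and 294 in the no-Si roots. BnaA09g10710D averaged 12.5 ± 4.40 CPM in Si roots and 35.9 ± 5.85 CPM in no-Si roots, and BnaA03g47140D averaged 2.25 ± 0.659 CPM in Si roots and 5.61 ± 0.589 CPM in no-Si roots (SD, n = 3). BnaC07g39340D, not called by edgeR in either organ, averaged 11.7 ± 2.67 CPM in Si roots and 23.9 ± 0.543 CPM in no-Si roots. In roots BnaA07g32570D passed (edgeR adjusted p = 0.00135), and the other genes did not, with edgeR adjusted p of 0.207 for BnaA09g10710D, 0.196 for BnaA03g47140D and 0.147 for BnaC07g39340D. The 4 genes had leaf minus root differences in log2 fold change of −0.86 (SE 1.40), −0.09 (SE 0.32), −0.50 (SE 0.29) and −0.68 (SE 0.26) in the order given.

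The remaining genes had another picture in roots. BnaC06g32310D averaged 1.17 ± 0.412 CPM in Si roots and 1.19 ± 0.339 CPM in no-Si roots (SD, n = 3). BnaA06g05150D averaged 114 ± 10.4 CPM in Si roots and 105 ± 17.1 CPM in no-Si roots. BnaC03g67640D had 2, 1 and 1 reads in the Si roots and 1, 1 and 0 in the no-Si roots, so it was measured in leaves only. The leaf minus root difference in log2 fold change was −1.40 (SE 0.36) for BnaC06g32310D and 0.93 (SE 0.21) for BnaA06g05150D, and neither passed (edgeR interaction, adjusted p = 1.00 each). Across all 45222 genes no organ by Si interaction passed by edgeR. An unadjusted p under 0.05 by edgeR was reached by 1823 (4.03%), again below what that threshold passes with no difference. DESeq2 called 8 (0.0161%).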

How the data were processed

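Per the labels' protocols, the libraries were stranded, paired-end and selected for poly(A) RNA. The authors deposited whole-number counts per gene identifier for either strand, the forward and the reverse strand, and per the file headers unmapped, multimapping, outside-gene and ambiguous reads were counted apart. The submitters' processing notes name Bowtie2 and TopHat2. Which build, annotation and counter were used is not given in the sources used here. A gene's A and C copies can be nearly identical, and how reads matching both were handled is not stated, so single-copy levels are uncertain.

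Sense counts were taken from the reverse column; the forward column held 0.355% to 0.723% of stranded gene counts. Si was compared with no Si in the 6 leaf libraries by edgeR 4.0.16 (R 4.3.3; TMM, filterByExpr, robust quasi-likelihood fit, two-sided), with Benjamini-Hochberg adjustment over all genes tested and a threshold of 0.05. The SE was derived from the F statistic. CPM are TMM-scaled, and log2 CPM used a prior count of 2. limma 3.58.1 (voom) gave 95% intervals, and DESeq2 1.42.0, other scalings, filters, terms and library subsets were alternatives. The tests were checked on simulated counts. Replicate pairs differed by more than sampling noise (chi-square over degrees of freedom 10.1 to 40.6, using genes with 20 or more reads per pair). The organ by Si interaction used all 12 libraries.

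Genes named are all those called, the 2 with the smallest p in each direction that were not called, and the 5 with the highest mean leaf CPM. The comparison, lists and rules were chosen with earlier results of these data known. The gene lists and marker lists drawn up by name could not be used: 2287 of 52962 identifiers equalled a RefSeq symbol, and such a symbol repeats the identifier.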

Additional observations from a re-analysis of the deposited data

How the results depend on the processing

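The 3 calls in leaves stayed 3 with DESeq2 size factors, no filter, a minimum mean of 1 CPM or either-strand counts. There was 1 call, BnaA07g32570D, with limma-voom, upper-quartile factors, no robust moderation or a replicate block, 0 with the labelled date as a term (855 genes with an unadjusted p under 0.05 by edgeR, while DESeq2 without the term called 43), 4 with all 12 libraries in 1 fit, and 1 to 7 when a library was left out (5 without no-Si replicate 1, 7 without replicate 2 of that group, 1 in each other case). The interaction gave 8 genes with DESeq2 and 0 with a replicate block. The replicate block ended 2 of the leaf calls (BnaA09g10710D and BnaA03g47140D, edgeR adjusted p = 0.612 each). Whether same-numbered leaf libraries of the 2 treatments form a block is not stated. Their deviations correlated at −0.06, −0.15 and 0.31, and 1 of 3 Si libraries, replicate 3, correlated best with its own number. So few correlations cannot decide whether there is a block.

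The number of genes past 2-fold became 715 and 452 with prior counts of 0.5 and 5, 901 without a filter, and 647 to 1066 when a library was left out, an alternative chosen after seeing the data. Genes whose groups do not overlap numbered 3572 to 4363 under other filters and 6698 to 9608 when a library was left out, also added after seeing the data. Smaller groups separate more easily.

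The uncalled log2 fold changes of the 5 most abundant genes changed sign 13 times, in 9 fits. When 1 library was left out, they ran from −0.42 to 0.048 for BnaC04g46560D, from −0.36 to 0.00242 for BnaAnng36210D, from −0.19 to 0.27 for BnaC01g05230D, from −0.17 to 0.34 for BnaA01g03860D and from −0.42 to 0.24 for BnaA02g09460D. BnaC01g05230D also turned to 0.00537 with limma-voom and 0.00813 with the replicate block, and BnaA01g03860D to −0.12 with the date term. The cause was not tested. Genes under 1 CPM had the widest intervals of the level classes, with 15.2% within 2-fold. Alternatives on named gene lists were not run, since the identifiers carry no names.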

Other observations

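Some genes passed only when 1 no-Si leaf library was left out. They were chosen after their values were seen. BnaA04g05640D had 488, 699 and 659 reads in the Si leaves and 787, 0 and 2 reads in no-Si replicates 1 to 3. It was present in all Si leaves and in 1 no-Si leaf, and it passed as higher with Si without no-Si replicate 1 (edgeR adjusted p = 2.15e-04). BnaA02g10740D had 0 reads in each Si leaf and 246, 1 and 189 reads in no-Si replicates 1 to 3, and passed as lower without no-Si replicate 2 (edgeR adjusted p = 0.0134). BnaA03g04690D had 272, 362 and 425 reads in the Si leaves and 1824, 214 and 1137 reads in the no-Si leaves, so that no-Si replicate 2 lay with the Si leaves. In all, 8 genes beyond the 3 calls passed in some alternative by edgeR or limma-voom, 7 of them lower with Si, and BnaC07g39340D was the only one of the 8 that passed in more than 1 of these alternatives.

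Complete absence in 1 group was rare. With at least 3 reads in every no-Si leaf and 0 in all Si leaves there was 1 gene, and with the groups exchanged there was none. Allowing at most 3 reads summed over the Si leaves at that floor gave 11 genes, and with the groups exchanged 7. With at least 10 reads in every no-Si leaf and at most 3 reads summed over the Si leaves there was 1 gene, BnaA07g32570D, and with the groups exchanged there was none.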
